A study of Caenorhabditis elegans with 19 samples.

Results

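The col genes make up most of the large family of Caenorhabditis elegans genes that encode the collagens of its cuticle. Members were taken by name alone: 156 genes whose WormBase symbol is col- followed by a number in the WBcel235 annotation, out of 21975 genes measured. They lay on all 6 chromosomes, 21 on I, 24 on II, 12 on III, 41 on IV, 31 on V and 27 on X. The transcripts were short, with a median length of 1020 bases and a range of 465 to 2910 bases, and 135 of the 156 genes had 1 annotated transcript. The naming rule also takes in col-99, a transmembrane collagen that is not a cuticle component, and it leaves out cuticle collagens named for the body shape of their mutants, such as dpy-7, sqt-3 and rol-6.

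The cuticle is a collagen-rich extracellular layer that the epidermis secretes and replaces at each moult. Its collagens are short proteins with a triple-helical domain of Gly-X-Y repeats. They are hydroxylated and folded in the endoplasmic reticulum, secreted, cleaved and crosslinked. Each larval stage, the dauer and the adult make their own mixture of collagens, and transcripts of single collagens come in bursts at set times of the moulting cycle. A whole-animal RNA level of a col gene therefore depends on the stage and on the time within it.

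RNA was measured by directional sequencing of poly(A) RNA from whole populations of animals, in FPKM (fragments per kilobase of a gene's transcript, scaled for library depth). The 3 genotypes were compared at the L3 larval stage: the double mutant xol-1 sex-1 (strain EKM198, alleles ne4472 and gk829), the single mutant xol-1 (strain WM458, allele ne4472) and the wild-type strain N2, called WT, with 4 samples each. Both mutants therefore carry the xol-1 allele, and both altered genes are on X. xol-1 is the switch gene of worm sex determination, and sex-1 encodes a nuclear receptor that represses it in XX embryos. The L3 animals were synchronised by bleaching, hatched overnight without food and fed for 24 h on the bacterial strain NA22. xol-1 sex-1 was also sampled as early embryos bleached from young adults (3 samples) and as L1 larvae fed for 3 h (4 samples). The other genotypes at those earlier stages were not analysed here, and the genotype comparisons are therefore all at L3. Each mutant genotype is 1 strain, and an allele cannot be told apart from strain background or from a difference in developmental timing between the populations. In whole animals, fewer cells of a type and less RNA per cell cannot be told apart either.

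The spacing of the lowest values showed that 1 FPKM on a 1 kb transcript was worth 28.2 to 35.5 fragments in embryo samples, 14.1 to 20.4 at L1 and 20.4 to 33.9 at L3. At L3 a floor of 3 fragments on such a transcript was 0.0885 to 0.147 FPKM, which covers counting error only. sex-1 RNA was present in the double mutant, at 3.47, 4.16, 3.36 and 4.06 FPKM, against 5.71, 4.995, 3.79 and 5.53 FPKM in xol-1 and 4.90, 5.59, 4.05 and 4.16 FPKM in WT, and xol-1 was at or below 0.12 FPKM in every L3 library. RNA levels therefore did not check the genotype labels. Within each L3 genotype the replicates were unevenly ranked in the col genes, most strongly in xol-1. xol-1 replicate 3 held the lowest of the 4 xol-1 values in 64 of the 95 col genes tested at L3 (67.4%). The share was 30.6% over all 13502 genes tested, and the counts of called col genes are given with and without this library. In xol-1 sex-1, replicate 2 was highest in 49.5% of the col genes, against 33.9% of all genes. Its replicate 4 was lowest in 43.2%, against 21.5%. In xol-1, replicate 2 was highest in 45.3% of the col genes, against 32.1% of all genes. In WT, replicate 2 was highest in 44.2% of the col genes, against 29.4% of all genes. Replicate 2 was thus the library most often highest in each genotype. WT replicate 4 was highest in 5.26%, against 22.2%.

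Across stages, the family was a small part of the RNA of embryos and newly fed L1 larvae and a larger part at L3. The 3 stages were deposited as separate tables, which may have been normalised separately, so levels are set side by side across them without a test. The share of summed FPKM taken by the 156 col genes does not depend on that scaling. It was 1.54, 1.18 and 0.958% in the early embryo libraries of xol-1 sex-1 and 1.21, 1.26, 1.32 and 1.31% in its L1 libraries. At L3 it was 5.10, 5.01, 4.60 and 4.60% in xol-1 sex-1, 4.99, 5.13, 3.99 and 5.07% in xol-1, and 4.90, 5.35, 5.08 and 5.20% in WT. The 3 genotypes overlapped at L3, with means of 4.83 ± 0.261% in xol-1 sex-1, 4.80 ± 0.538% in xol-1 and 5.13 ± 0.191% in WT (SD, n = 4 each). The xol-1 value with the larger spread rests on replicate 3, at 3.99%.

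**Figure D1:**
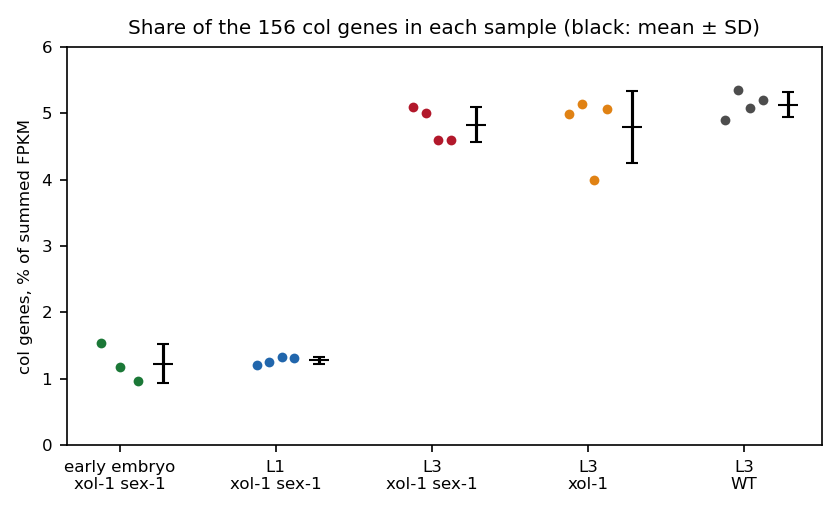
Share of the 156 col genes in the summed FPKM of each sample, in percent, by stage and genotype; coloured points are samples, and the black line and bar are the mean and SD. The embryo and L1 samples sit between 0.958 and 1.54%, the L3 samples between 3.99 and 5.35%, and xol-1 replicate 3 is the lowest L3 sample.

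A few genes carried most of the family at each stage. The 10 highest col genes made up 63.3 to 68.4% of the family's FPKM in embryos, 83.4 to 84.2% at L1 and 60.6 to 69.0% at L3. In xol-1 sex-1, a mean of at least 1 FPKM was reached by 110 members in embryos, 87 at L1 and 100 at L3, and a mean of at least 100 FPKM by 26, 16 and 53 members. With the L3 mean taken over the 12 samples of all genotypes, 33 members were under 1 FPKM at all 3 stages. These include col-36 and col-108, with means of 1.148 and 1.185 FPKM in xol-1 sex-1 at L3. Among the 33, col-99 and col-185 were listed at 0 in all 19 samples. A listed 0 is no proof of absence, because the way fragments were assigned to transcripts is not stated and 72 members overlap another gene.

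The larval set was led by the same few genes at L1 and L3. col-10 (WBGene00000599, V 9164292 to 9165307, minus strand), whose promoter is widely used to drive expression in the larval epidermis, had 1852, 1861, 1965 and 2232 FPKM at L1. At L3 its level was 7997, 8795, 7018 and 7120.3 FPKM in xol-1 sex-1, 8769, 9071, 7522 and 10806 FPKM in xol-1 and 7036, 8412, 7124 and 7833 FPKM in WT. The genotypes overlapped, and col-10 passed in none of the 3 comparisons. The divergent neighbours col-117 (WBGene00000691, IV 8822962 to 8824195, minus strand) and col-3 (WBGene00000594, IV 8824783 to 8826013, plus strand) were close behind, with means of 2044 and 1921 FPKM at L1 and of 7138 and 6859 FPKM at L3 in xol-1 sex-1. col-166, col-144, col-107, col-167 and col-42 completed the 8 highest members at L1, with means of 1628, 1459, 1014, 948 and 902 FPKM. At L3 in xol-1 sex-1 the means of the same genes were 6020, 3871, 2894, 4160 and 730.3 FPKM, so that col-42 alone of the 8 was not higher at L3 than at L1. In all, 15 members had at least 100 FPKM at both L1 and L3.

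Other members were low at L1 and among the more abundant at L3. In xol-1 sex-1, 23 col genes were under 10 FPKM at L1 and at 100 FPKM or more at L3. col-17, a larval collagen that is shut off in adults, had 0.169, 0.188, 0.228 and 0.727 FPKM at L1 and 2437, 2777, 2367 and 2387 FPKM at L3. col-73 lies in the same row of neighbours on chromosome II and had 0.0654, 0.491, 0.066 and 0.153 FPKM at L1 and 1423, 1789, 1492 and 1429.6 FPKM at L3. The similar tandem genes col-12 and col-13 also belonged here, with means of 9.49 and 7.19 FPKM at L1 and of 496 and 1468 FPKM at L3. In the other direction stood col-160, with 188, 212, 209 and 233 FPKM at L1 and 15.4, 17.1, 20.7 and 18.4 FPKM at L3.

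A further set of members had its highest values in the early embryo libraries. Of the 26 members with a mean of at least 100 FPKM in embryos, 14 had a mean under 1 FPKM over the 12 L3 samples. In xol-1 sex-1 alone, col-122, col-124 and col-178 of these had L3 means of 1.012, 1.044 and 1.011 FPKM. The highest mean among the 14 was 0.756 FPKM over the L3 samples and 6.72 FPKM at L1. col-119 was the highest of them, at 2274, 1617 and 1292 FPKM in embryos, 2.63, 0.966, 1.56 and 2.54 FPKM at L1 and 0.252, 0.188, 0.317 and 0.204 FPKM at L3 in xol-1 sex-1. col-20 had 1992, 1431 and 1071 FPKM in embryos and 1994, 1390.2 and 1103 FPKM were measured for col-140. col-19, the best-known collagen of the adult cuticle, had 1459, 1006 and 759.8 FPKM in embryos, 2.24, 3.16, 1.4151 and 1.64 FPKM at L1 and 0.315, 0.559, 0.329 and 0.319 FPKM at L3. col-122, col-178 and col-124 followed with means of 1018 ± 288, 997 ± 287 and 899 ± 271 FPKM (SD, n = 3). The other adult collagens, col-7 and col-62, were low in embryos, with 5.76, 4.41 and 1.6 FPKM for col-7 and 10.5, 11 and 3.5 FPKM for col-62.

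The 3 embryo libraries differed in an ordered way in the abundant members. Of 34 members with a mean of at least 50 FPKM in embryos, 25 had their highest value in replicate 1 and their lowest in replicate 3, with replicate 1 at 1.73 to 2.59 times replicate 3 (median 1.86). Another 8 had the opposite order, with replicate 3 at 1.19 to 1.59 times replicate 1 (median 1.38), and col-117 had neither. The 8 were col-3, col-10, col-74, col-107, col-121, col-125, col-165 and col-167. Of the 14 members at 100 FPKM or more in embryos and under 1 FPKM at L3, 11 followed the first order and 3 the second. Among all 3840 genes at or above 50 FPKM in embryos, 52.0% had the first order and 15.7% the second. The yolk protein genes vit-1 to vit-6, which adult intestine transcribes, summed to 6690, 7713 and 4834 FPKM in the 3 embryo libraries, to 2.62 to 3.63 FPKM at L1 and to 0.413 to 0.528 FPKM in xol-1 sex-1 at L3. Their highest library was replicate 2 and that of col-19 was replicate 1, and both were lowest in replicate 3. The part of adult RNA in the embryo values of the col genes was not tested.

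**Figure D2:**
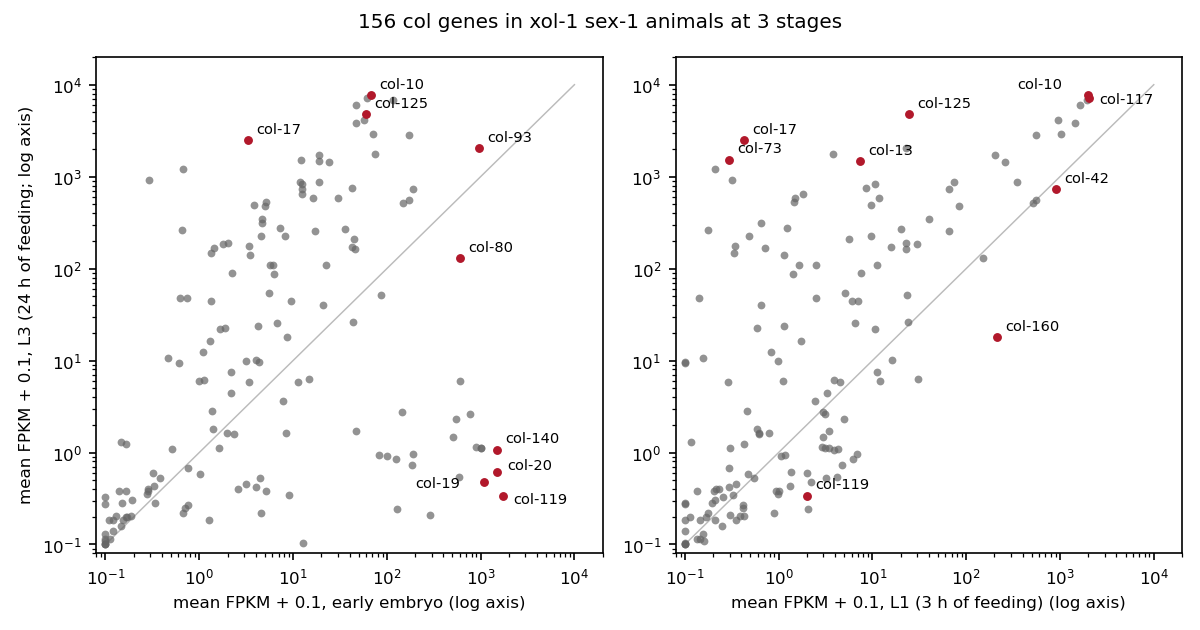
Mean FPKM + 0.1 of the 156 col genes in xol-1 sex-1 animals at L3 (vertical) against the early embryo (left) and L1 (right), all on log axes; each point is a gene, red points are named, and the grey line marks equal values. Genes such as col-119 and col-19 lie at the lower right of the left panel, and col-17 and col-73 at the upper left of the right panel.

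Collagens of the L4 and dauer programmes were low at L3. col-38, col-49, col-63 and col-138 depend on the transcription factor LIN-29 at the L4 stage. col-38 had 7.93, 5.89, 3.76 and 5.49 FPKM in xol-1 sex-1, 4.97, 5.75, 3.88 and 3.75 FPKM in xol-1 and 7.16, 7.83, 7.62 and 8.14 FPKM in WT at L3. It was called lower in xol-1 than in WT (log2 fold change -0.65, limma adjusted p = 0.0107) and not in the other comparisons. The other L4 genes did not pass the filter on low values, a mean of 1 FPKM over the 12 L3 samples. Among them col-63 had 0.504, 0.295, 0.553 and 0.357 FPKM in xol-1 sex-1, 0.0443, 0, 0 and 0.0283 FPKM in xol-1 and 0.0514, 0.056, 0 and 0 FPKM in WT. The dauer collagens col-2 and col-40 did not pass it either, and their highest L3 values were 0.345 and 0.218 FPKM, both in xol-1 sex-1. Just outside the filter were col-122, col-178, col-124, col-140 and col-36, at 0.624 to 0.938 FPKM, and just inside it were col-137, col-143, col-110, col-129 and col-120, at 1.10 to 1.67 FPKM. In all, 95 of the 156 members passed and 61 did not.

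Genotypes were compared at L3 with limma on log2(FPKM + 1) over all 13502 genes that passed the filter, with Benjamini-Hochberg adjustment over all of them. On this scale the change of a gene near the filter is understated. The filter is a mean over all 12 samples, so a low gene can pass through the genotype where it is high. Such selection favours calls of higher in that genotype. col-137 is an example, at means of 1.69, 0.634 and 0.988 FPKM in xol-1 sex-1, xol-1 and WT. The first question was what distinguishes xol-1 sex-1 from xol-1, which differ in the labelled sex-1 allele. Of the 95 tested members, 28 were higher in xol-1 sex-1 and 19 were lower (adjusted p under 0.05), where 22.9% of all tested genes were higher and 26.3% lower. The groups did not overlap in 21 of the 28 and 15 of the 19, where 19.2% of all tested genes were higher and 21.8% lower without overlap. A change of at least 1.5-fold was called for 15 higher members (9.04% of all tested genes) and 8 lower members (5.84%). The median log2 fold change of the tested members was 0.08, against -0.02 over all genes. The balance of the counts turned round without xol-1 replicate 3, with 22 members higher and 26 lower and a median of 0.03. With columns scaled to a common sum, 68.5% of the called members were higher in xol-1 sex-1, against 59.6% as deposited, and 63.3% of all called genes, against 46.6% as deposited.

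The largest changes named for each comparison are those among called genes whose groups did not overlap. In xol-1 sex-1 over xol-1 the largest rises fell on genes of very different abundance. col-76 (WBGene00000652, II 8204339 to 8207495, plus strand) had 23.3, 29.2, 26.1 and 24.8 FPKM in xol-1 sex-1, against 9.22, 7.29, 6.98 and 8.35 FPKM in xol-1. All 4 double-mutant values lay above all xol-1 values, and the log2 fold change was 1.59 (SE 0.16, limma adjusted p = 9.85e-06). col-73 (WBGene00000649, II 4872098 to 4873129, minus strand) had 1423, 1789, 1492 and 1429.6 FPKM in xol-1 sex-1, against 670.3, 618, 429 and 677 FPKM in xol-1, a log2 fold change of 1.37 (SE 0.16, limma adjusted p = 2.57e-05). Here too the groups did not overlap, and the lowest xol-1 value was that of replicate 3; without it the log2 fold change was 1.22. The larval collagen col-17 (WBGene00000606, II 4866436 to 4867576, minus strand) had 2437, 2777, 2367 and 2387 FPKM in xol-1 sex-1, against 1380.3, 1405, 983 and 1385 FPKM in xol-1. Its log2 fold change was 0.96 (SE 0.12, limma adjusted p = 4.14e-05), and 0.84 without xol-1 replicate 3. col-73 and col-17 are both on the list of members that were near 0 at L1.

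Among the rises of less abundant members, col-109 (WBGene00000683, IV 1817392 to 1820253, minus strand) had 94.6, 133, 108 and 106 FPKM in xol-1 sex-1, against 55.7, 42, 33.8 and 70.1 FPKM in xol-1, a log2 fold change of 1.16 (SE 0.24, limma adjusted p = 0.00213). col-97 (WBGene00000672, III 12992405 to 12993707, minus strand) had 139, 204, 175 and 165 FPKM in xol-1 sex-1, against 85.9, 58.7, 53.9 and 128 FPKM in xol-1, a log2 fold change of 1.13 (SE 0.32, limma adjusted p = 0.0132). In both genes the lowest double-mutant value was above the highest xol-1 value. col-149 (WBGene00000722, V 10291701 to 10292869, minus strand) had 127, 172, 139.7 and 123.26 FPKM in xol-1 sex-1, against 81.3, 56.9, 50.5 and 87.7 FPKM in xol-1 (log2 fold change 1.04, limma adjusted p = 0.000409). The tandem member col-145 (WBGene00000718, V 9161992 to 9163005, minus strand) had 62.2, 61.3, 45.6 and 48.8 FPKM in xol-1 sex-1, against 26.9, 37.2, 21.7 and 29.6 FPKM in xol-1 (log2 fold change 0.90, limma adjusted p = 0.000331). Again the groups did not overlap in either gene. col-96 rose as well, by 1.07 on the log2 scale (limma adjusted p = 5.15e-06).

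Of the falls, that of col-147 (WBGene00000720, V 9632029 to 9633338, minus strand) was the largest. It had 1795, 1924, 1675 and 1554 FPKM in xol-1 sex-1, against 3873, 3763, 3324 and 3803 FPKM in xol-1, a log2 fold change of -1.09 (SE 0.10, limma adjusted p = 5.99e-06). WT stood near the double mutant, at 1757, 2402, 1798 and 2158 FPKM. col-94 (WBGene00000669, III 10986808 to 10987873, minus strand), among the most abundant col genes at L3, fell to 3114, 2921, 2651 and 2745 FPKM in xol-1 sex-1, against 4431, 5109, 3725 and 4555 FPKM in xol-1 (log2 fold change -0.63, limma adjusted p = 0.000229). The similar pair col-13 (WBGene00000602, V 10420788 to 10421902, minus strand) and col-12 (WBGene00000601, V 10423898 to 10425198, minus strand) fell together, by 0.55 and 0.60 on the log2 scale. For such near-identical neighbours the split of fragments between them is uncertain. The adult collagen col-62 was low in every genotype, with 0.852, 1.78, 1.65 and 1.75 FPKM in xol-1 sex-1 and 2.91, 2.96, 4.92 and 2.41 FPKM in xol-1 (log2 fold change -0.76, limma adjusted p = 0.00383). The X-linked genes col-177 (WBGene00000750, X 10999663 to 11001850, minus strand) and col-184 (WBGene00000757, X 13469455 to 13470409, plus strand) fell as well. col-177 had 5.25, 8.29, 9.13 and 6.91 FPKM in xol-1 sex-1, against 14.6, 10.4, 16.3 and 14.3 FPKM in xol-1 (log2 fold change -0.83, limma adjusted p = 0.000789), and col-184 had 7.57, 5.52, 5.64 and 5.12 FPKM in xol-1 sex-1, against 10.7, 12.6, 9.22 and 10.2 FPKM in xol-1 (log2 fold change -0.75, limma adjusted p = 0.000759). col-106 and col-118 completed the largest falls, at -0.63 and -0.62 on the log2 scale. For each of the falls named here, every double-mutant value lay below every xol-1 value.

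The second question was what distinguishes xol-1 from WT, where more members were called lower than higher. Of the 95 tested members, 19 were higher in xol-1 and 41 lower, where 16.0% of all tested genes were higher and 14.7% lower. The values did not overlap in 14 of the 19 and 37 of the 41, where 13.3% of all tested genes were higher and 12.6% lower without overlap. A change of at least 1.5-fold was called for 12 higher members (4.01% of all tested genes) and 23 lower members (4.73%). The median log2 fold change of the tested members was -0.17, against -0.0006 over all genes. Without xol-1 replicate 3, 23 members were higher and 36 lower, with a median of -0.12. Without the filter on low values the median over 154 members was -0.0038. With columns scaled to a common sum, 25.4% of the called members were higher in xol-1, against 31.7% as deposited, and 26.5% of all called genes, against 52.0% as deposited.

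col-71 (WBGene00000647, II 3500077 to 3502570, minus strand) showed the largest fall, with 2.91, 2.82, 2.38 and 2.69 FPKM in xol-1, against 9.6, 11, 9.12 and 9.79 FPKM in WT, a log2 fold change of -1.55 (SE 0.11, limma adjusted p = 2.38e-06). The xol-1 and WT values did not overlap, and the double mutant was on the xol-1 side, at 4.41, 2.94, 3.24 and 3.66 FPKM. col-131 (WBGene00000705, IV 13065729 to 13067300, minus strand) had 174, 239, 158 and 154 FPKM in xol-1, against 366, 377, 392 and 369 FPKM in WT, a log2 fold change of -1.07 (SE 0.13, limma adjusted p = 6.74e-05). The highest xol-1 value, that of replicate 2, was still below every WT value. col-172 (WBGene00000745, X 6672819 to 6674423, plus strand), an X-linked member listed at 0 in 3 of 4 L1 libraries, had 132, 186, 118.97 and 121 FPKM in xol-1, against 269, 286, 290.1 and 276 FPKM in WT, a log2 fold change of -1.03 (SE 0.13, limma adjusted p = 0.000104). On chromosome V, col-153 (WBGene00000726, V 10949811 to 10951821, plus strand) had 99.2, 129, 86.3 and 84.4 FPKM in xol-1, against 175, 179, 195 and 179 FPKM in WT (log2 fold change -0.88, limma adjusted p = 0.000363). On chromosome IV, col-115 (WBGene00000689, IV 7988685 to 7991428, plus strand) had 83.1, 91.7, 84.9 and 90.3 FPKM in xol-1, against 170.2, 146, 156 and 150.1 FPKM in WT (log2 fold change -0.82, limma adjusted p = 2.5e-06). col-75, col-58 and col-157 completed the largest falls, at -1.04, -0.80 and -0.79 on the log2 scale. In each of these 8 genes every xol-1 value lay below every WT value. col-17 belonged to the lower genes as well, at a log2 fold change of -0.72 (SE 0.12, limma adjusted p = 0.00058).

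Among the rises in xol-1 over WT, col-142 (WBGene00000715, V 6831177 to 6832256, plus strand) was the largest. It had 44.6, 21.6, 17.1 and 40.6 FPKM in xol-1, against 9.86, 8.64, 4.13 and 5.6 FPKM in WT, a log2 fold change of 1.94 (SE 0.32, limma adjusted p = 0.00094). The xol-1 libraries fell into a high and a low pair, and both lay above WT. col-141, its tandem neighbour 437 bases upstream, had 25, 19.5, 24.8 and 22.1 FPKM in xol-1, against 11.3, 13.7, 10.6 and 8.99 FPKM in WT (log2 fold change 0.98, limma adjusted p = 0.000115). col-42 (WBGene00013489, V 18638484 to 18639591, plus strand) had 818, 707, 633 and 832 FPKM in xol-1, against 356, 402, 373 and 379 FPKM in WT, a log2 fold change of 0.98 (SE 0.09, limma adjusted p = 1.05e-05). It was among the most abundant col genes at L1. The L1-abundant members col-98 (WBGene00000673, III 13019008 to 13020226, plus strand) and col-103 (WBGene00000677, IV 762413 to 763678, minus strand) were higher too. col-98 had 710.1, 601, 541 and 715 FPKM in xol-1, against 334, 369.6, 327 and 324 FPKM in WT (log2 fold change 0.91, limma adjusted p = 2.05e-05), and col-103 had 603, 488, 438 and 652 FPKM in xol-1, against 271, 326, 305 and 305 FPKM in WT (log2 fold change 0.84, limma adjusted p = 0.000154). Their double-mutant values were 577, 602, 543 and 519 FPKM for col-98 and 562, 531, 523 and 468 FPKM for col-103. col-80, col-160 and col-147 completed the largest rises, at 0.95, 0.88 and 0.87 on the log2 scale. Each of these 8 genes had xol-1 values that all lay above the WT values.

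The third question was what distinguishes the double mutant from WT. Of the 95 tested members, 28 were higher in xol-1 sex-1 and 38 lower, where 25.2% of all tested genes were higher and 28.1% lower. The values did not overlap in 21 of the 28 and 36 of the 38, where 22% of all tested genes were higher and 24.7% lower without overlap. A change of at least 1.5-fold was called for 17 higher members (10.5% of all tested genes) and 18 lower members (7.9%). The median log2 fold change was -0.18, against -0.03 over all genes, and it was 0.07 over 154 members when no filter on low values was set, where 46 members were called higher and 38 lower.

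col-142 showed the largest change of the tested members in this comparison, with 41.4, 66.4, 53 and 45 FPKM in xol-1 sex-1, against 9.86, 8.64, 4.13 and 5.6 FPKM in WT, a log2 fold change of 2.74 (SE 0.32, limma adjusted p = 4.24e-05). Members that did not pass the filter were not ranked. col-76 was at 23.3, 29.2, 26.1 and 24.8 FPKM in xol-1 sex-1, against 9.1, 5.92, 5.83 and 4.28 FPKM in WT, a log2 fold change of 1.92 (SE 0.16, limma adjusted p = 1.58e-06). col-96 had 6.95, 5.72, 5.59 and 6.37 FPKM in xol-1 sex-1, against 0.783, 1.02, 1.01 and 0.99 FPKM in WT, a log2 fold change of 1.87 (SE 0.10, limma adjusted p = 7.56e-08). For each of the 3 genes the groups did not overlap. The xol-1 values of col-96, 2.73, 2.25, 2.21 and 2.42 FPKM, lay between those of the other genotypes without overlap. col-97 had 135, 60.3, 75.8 and 52 FPKM in WT, below all 4 double-mutant values given above, a log2 fold change of 1.16 (SE 0.32, limma adjusted p = 0.0104). col-73 had 969, 759.9, 745 and 619 FPKM in WT, also below every double-mutant value, a log2 fold change of 0.9991 (SE 0.16, limma adjusted p = 0.000191). col-169, col-42 and col-168 completed the largest rises without overlap, at 1.25, 0.95 and 0.93 on the log2 scale. col-33, whose groups overlapped, was called higher at 1.28 (limma adjusted p = 0.00341).

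The largest falls in the double mutant against WT were again led by col-71, at a log2 fold change of -1.26 (SE 0.11, limma adjusted p = 1.9e-06). col-118 (WBGene00000692, IV 8848218 to 8849673, plus strand) had 1086, 839, 776 and 808 FPKM in xol-1 sex-1, against 1539, 1938, 1823 and 1918 FPKM in WT, a log2 fold change of -1.05 (SE 0.13, limma adjusted p = 3.17e-05). Its xol-1 values, 1293, 1703, 1187 and 1229.5 FPKM, overlapped those of WT. col-12 fell to 531, 491, 498 and 466 FPKM in xol-1 sex-1, against 843, 955, 945 and 862 FPKM in WT, and col-13 to 1617, 1556, 1360.2 and 1338 FPKM, against 2582, 2842, 2540.1 and 2585 FPKM in WT. Both members of this tandem pair were lowest in the double mutant, with log2 fold changes of -0.86 and -0.85 (limma adjusted p = 2.92e-06 and 9e-06). col-61 (WBGene00000637, I 7202205 to 7203533, minus strand) had 55.6, 48.6, 42.5 and 43.7 FPKM in xol-1 sex-1, against 90.8, 104, 99.3 and 100.4 FPKM in WT (log2 fold change -1.04, limma adjusted p = 2.37e-06). col-34 (WBGene00000611, IV 4243545 to 4244610, minus strand) had 939.5, 738, 632 and 661 FPKM in xol-1 sex-1, against 1234, 1393, 1399.9 and 1368 FPKM in WT (log2 fold change -0.88, limma adjusted p = 0.000246). col-153, col-187 and col-130 completed the largest falls, at -1.04, -0.97 and -0.86 on the log2 scale. In the 8 genes of the largest falls, col-12 among them, the groups did not overlap.

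**Figure D3:**
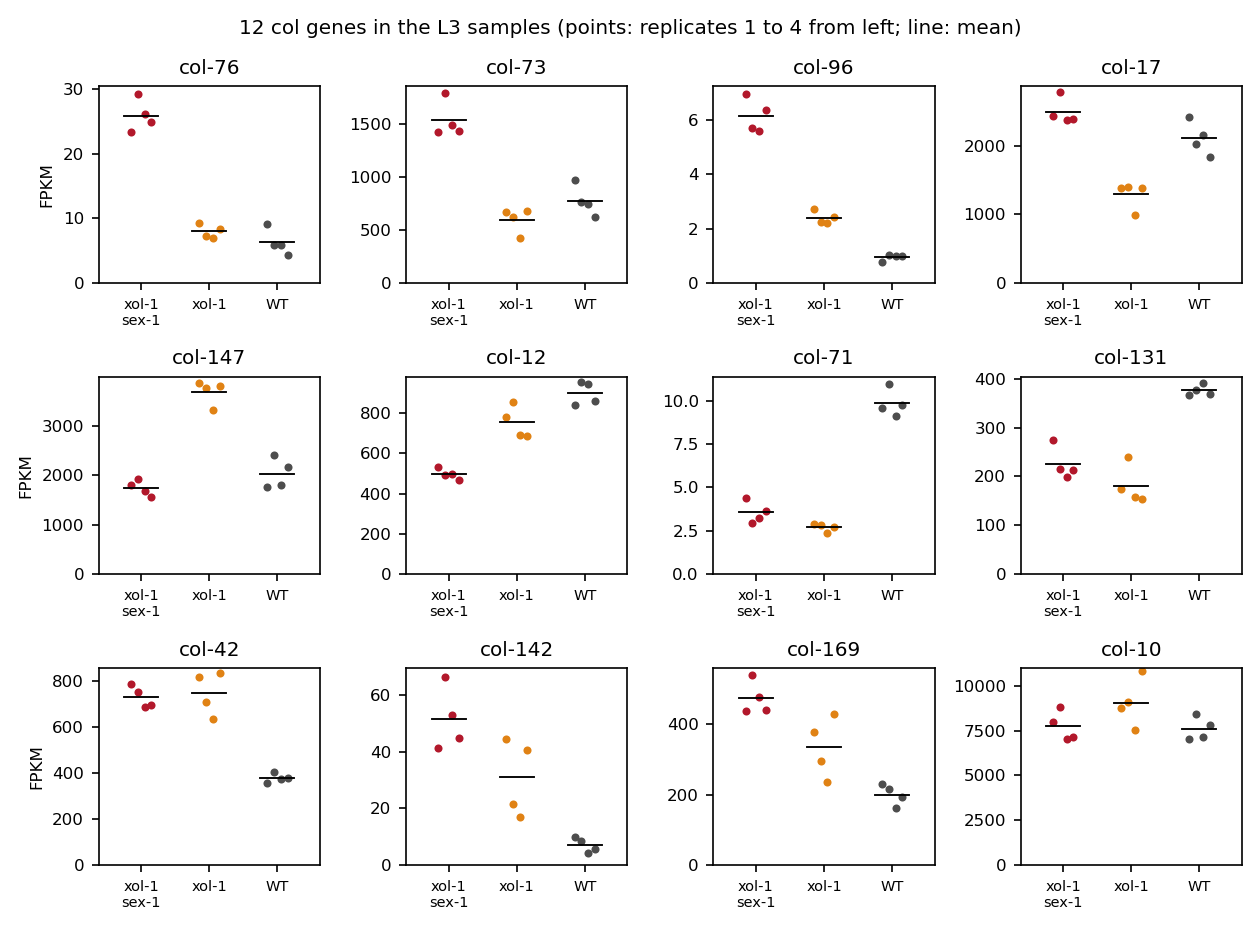
FPKM of 12 col genes in the 12 L3 samples, by genotype (xol-1 sex-1, xol-1, WT); points are replicates 1 to 4 from the left, lines are means, and every vertical axis starts at 0. The xol-1 values of col-17 lie below, and those of col-147 above, both other genotypes, WT lies above both mutants for col-71 and below both for col-42, and the genotypes overlap for col-10.

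Each pair of comparisons shares the libraries of 1 genotype, so an equal or opposite direction in a pair is no separate evidence. Their values are therefore set side by side gene by gene. col-17 had means of 2492 ± 192 FPKM in xol-1 sex-1, 1288 ± 204 FPKM in xol-1 and 2107 ± 247 FPKM in WT (SD, n = 4 each). For col-157 the means were 167 ± 16.9, 95.7 ± 9.65 and 166 ± 13.7 FPKM in the same order of genotypes, and the double mutant differed from WT by less than the spread between replicates (0.01 on the log2 scale, limma adjusted p = 0.965). col-42, by contrast, had means of 730.3 ± 45.8 and 748 ± 94.5 FPKM in the mutants and 378 ± 19.1 FPKM in WT. col-125, the member with the highest L3 mean among those under 50 FPKM at L1, was at 5237, 5150.3, 4509.6 and 4360.0 FPKM in xol-1 sex-1, 3863, 4769, 3159 and 3877 FPKM in xol-1 and 5651, 6327, 6235 and 5628 FPKM in WT. Its log2 fold changes were 0.31 for xol-1 sex-1 over xol-1 (limma adjusted p = 0.0331) and -0.62 for xol-1 over WT (limma adjusted p = 0.000924). Without xol-1 replicate 3 the first of these was 0.21 and was not called (limma adjusted p = 0.0954).

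**Figure D4:**
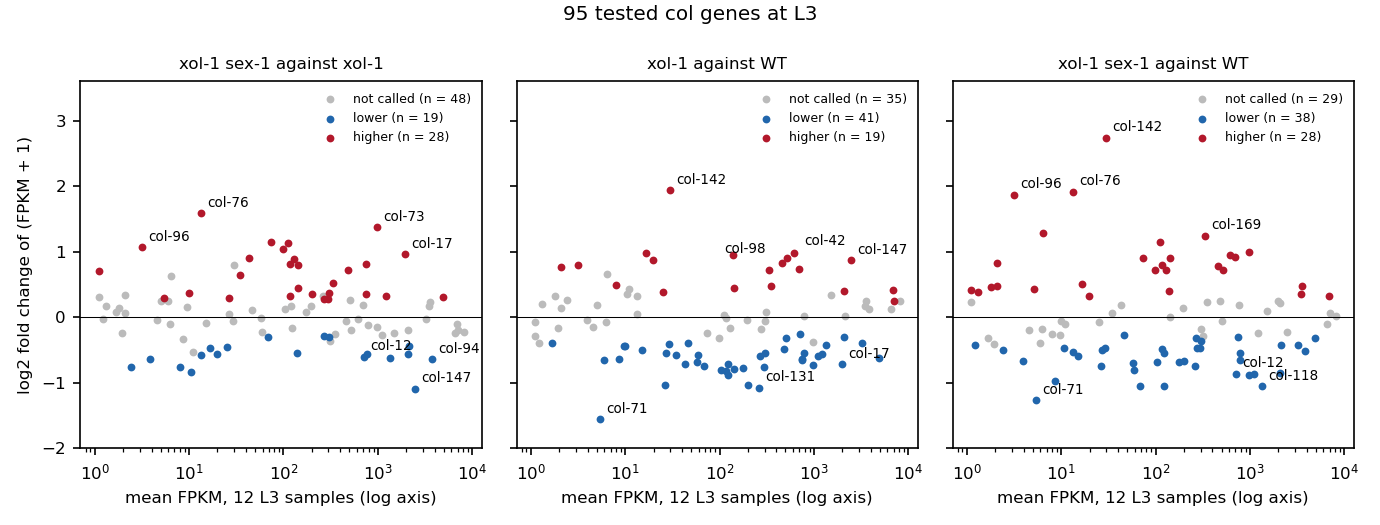
Log2 fold change of (FPKM + 1) of the 95 tested col genes against their mean FPKM over the 12 L3 samples (log axis), for the double mutant against xol-1, xol-1 against WT and the double mutant against WT; red and blue points are genes called higher and lower by limma and grey points were not called. Calls in both directions occur from under 10 to over 1000 FPKM, and the 41 lower calls of the middle panel outnumber its 19 higher calls.

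The balance of rises and falls at L3 differed with the members' level at L1, a readout from other libraries. The split at 50 FPKM in L1 larvae of xol-1 sex-1 was chosen after the values were seen and is given without a test. Of the 20 tested members at or above it, 10 were higher and 3 lower in xol-1 than in WT, with a median log2 fold change of 0.30. Of the 75 members below it, 9 were higher and 38 lower, with a median of -0.31. Over all tested genes, 33.5% were higher and 8.76% lower among the 2614 at or above 50 FPKM at L1, and 11.8% higher and 16.2% lower among the 10888 below it, with medians of 0.11 and -0.02. For the double mutant against xol-1 the counts were 1 higher and 6 lower at or above the split, with a median of -0.19, and 27 higher and 13 lower below it, with a median of 0.17. Of all tested genes 27.3% were higher and 34.2% lower at or above the split, and 21.8% higher and 24.4% lower below it. For the double mutant against WT they were 10 higher and 5 lower at or above the split and 18 higher and 33 lower below it, where the shares of all tested genes were 39.6% higher and 23.5% lower at or above it and 21.7% higher and 29.2% lower below it. With a split at 20 FPKM, xol-1 against WT had 15 higher and 4 lower of 29 members at or above it. Below it 4 were higher and 37 lower of 66. The shares of all tested genes were 26.6% higher and 10.1% lower at or above it, and 9.09% and 17.8% below it. The double mutant against xol-1 had 7 higher and 6 lower members at or above it, where 25.7% of all tested genes were higher and 32.8% lower. Without xol-1 replicate 3 the members at or above 50 FPKM counted 14 higher and 2 lower in xol-1 against WT and 1 higher and 11 lower in the double mutant against xol-1.

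**Figure D5:**
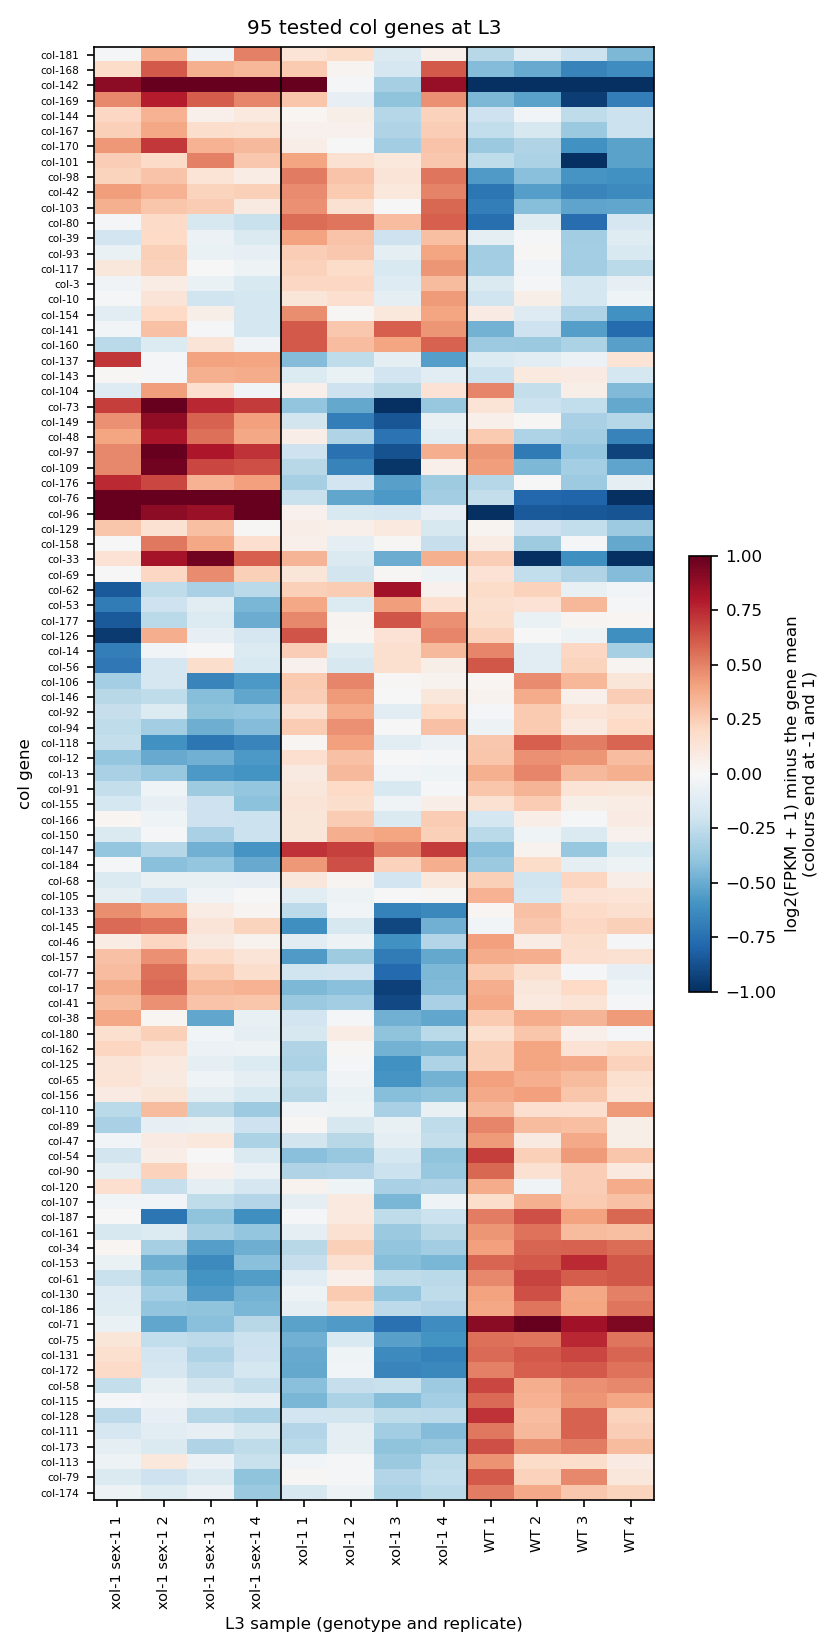
Log2(FPKM + 1) of the 95 tested col genes (rows) minus the gene's mean over the 12 L3 samples (columns, by genotype and replicate); red is above and blue below the mean, colours end at -1 and 1, and rows are ordered by average-linkage clustering on correlation, for display only. Blocks of genes differ in which genotype is high, and xol-1 replicate 3 is the bluest xol-1 column for genes such as col-73, col-145 and col-17.

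The levels at L3 were also set beside the calls. In xol-1 against WT, 4 members were higher and 7 lower among the 18 with a mean of at least 1000 FPKM over the L3 samples, 8 and 18 among the 35 at 100 to 1000 FPKM, 4 and 10 among the 20 at 10 to 100 FPKM, and 3 and 6 among the 22 at 1 to 10 FPKM. By chromosome, the same comparison had 0 higher and 6 lower among the 10 tested members on I, 1 and 6 among the 12 on II, 3 and 2 among the 9 on III, 4 and 12 among the 26 on IV, and 7 and 8 among the 22 on V. The 16 tested members on X, the chromosome of both altered genes, counted 4 higher and 7 lower in xol-1 against WT. In the double mutant they counted 5 higher and 2 lower against xol-1, and 6 higher and 6 lower against WT. Over all tested genes, 16.0% were higher and 14.7% lower in xol-1 against WT. For the double mutant these shares were 22.9% and 26.3% against xol-1, and 25.2% and 28.1% against WT. Shares of all genes by level or chromosome were not taken. The counts therefore do not tell col genes apart from other genes of the same level or chromosome. Leaving out members that overlap any other gene left 57, with 16 higher and 11 lower in the double mutant against xol-1, 12 and 24 in xol-1 against WT, and 18 and 19 in the double mutant against WT.

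Many members sit next to each other. Within 5 kb there were 29 pairs of neighbouring col genes, and both genes were tested in 18 of them. Pairs with both genes called in the same direction numbered 3 in the double mutant against xol-1, 6 in xol-1 against WT and 5 in the double mutant against WT, and pairs called in opposite directions numbered 1, 0 and 0. The rates for col genes that are not neighbours, and for other neighbouring genes, were not taken. The counts therefore do not show that neighbours change together more than other pairs. The opposite pair was col-149 and col-150, 693 bases apart on V, with log2 fold changes of 1.04 and -0.46 in the double mutant against xol-1. Of the 6 same-direction pairs in xol-1 against WT, some rest on calls that other settings did not keep: col-12 and col-13 each lost theirs in 4 of the settings tried and col-3 in 13.

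In the tandem row col-167 to col-171 on X, 4 of the genes were tested. col-167, col-168, col-169 and col-170 were all higher in the double mutant than in WT, with log2 fold changes of 0.49, 0.93, 1.25 and 0.91, and each with groups that did not overlap. In xol-1, col-168, col-169 and col-170 were also called higher than in WT, at 0.74, 0.72 and 0.45. In the double mutant against xol-1, col-169 and col-170 were called higher, at 0.53 and 0.45, and col-167 and col-168 were not (limma adjusted p = 0.0729 and 0.298). col-169 (WBGene00000742, X 6329160 to 6330062, plus strand) had 438, 541, 477 and 440.2 FPKM in xol-1 sex-1, 379, 296, 236 and 429 FPKM in xol-1 and 229, 215, 163 and 193 FPKM in WT. Its neighbour col-171 was at or below 0.11 FPKM in all 19 libraries. Neighbours of similar sequence can share fragments, so the level of each single gene in such a row is uncertain.

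Other rows were mixed. On chromosome II, col-17, col-20 and col-73 lie side by side on the minus strand. col-17 and col-73 were among the most abundant col genes at L3, while col-20 between them had 0.336, 0.47, 0.527 and 0.722 FPKM in xol-1 sex-1 at L3 and 1992, 1431 and 1071 FPKM in embryos. On chromosome III, col-93 had the highest embryo mean of the row col-92, col-93 and col-94, at 956 ± 308 FPKM, against 75.2 ± 29.7 FPKM for col-92 and 173 ± 54.9 FPKM for col-94 (SD, n = 3). At L3 in xol-1 sex-1 the means were 1747 FPKM for col-92, 2059 FPKM for col-93 and 2858 FPKM for col-94. On chromosome V, col-144 and col-10 were abundant at L1, at 1459 and 1977 FPKM, while col-145 between them was at 5.01 FPKM there and at 54.5 FPKM in xol-1 sex-1 at L3.

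Genes that act with the col genes were read from the same fit. Other collagens of the cuticle, most of them named for body shape, fell in xol-1: 15 of 16 tested were lower and 0 higher than in WT, with a median log2 fold change of -0.65. In the double mutant against xol-1, 8 were higher and 0 lower, and in the double mutant against WT 1 was higher and 9 lower. Without xol-1 replicate 3 these counts were 15 lower and 0 higher, 7 higher and 0 lower, and 3 higher and 9 lower. The largest rise in xol-1 sex-1 over xol-1 was that of dpy-13, a cuticle collagen whose loss shortens the body, with 2217, 2402, 2137 and 2107 FPKM in xol-1 sex-1, 1106, 1248, 782 and 1140 FPKM in xol-1 and 2068, 1732, 1711 and 1536 FPKM in WT. Its log2 fold change was 1.07 (SE 0.13, limma adjusted p = 3.69e-05) for the double mutant against xol-1. sqt-3, needed for the larval cuticle from hatching on, had the largest fall in xol-1 against WT, at a log2 fold change of -0.88 (SE 0.11, limma adjusted p = 6.11e-05).

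Of 9 tested enzymes and chaperones of collagen folding, 6 rose and 0 fell in the double mutant relative to xol-1, led by pdi-2, the protein disulfide isomerase that is part of the prolyl 4-hydroxylase complex, at a log2 fold change of 0.86 (SE 0.11, limma adjusted p = 4.6e-05). In xol-1 against WT 0 were higher and 4 lower, led by phy-2, a prolyl 4-hydroxylase subunit, at -0.73. In the double mutant against WT 5 were higher, and phy-2 and the cyclophilin gene cyn-6 were lower, at -0.91 and -0.62. Genes of collagen secretion gave 6 higher and 1 lower of 9 tested in the double mutant against xol-1, 0 and 5 in xol-1 against WT, and 4 and 2 in the double mutant against WT; the COPII coat subunit sec-24.1 had the largest rise, 0.65. Genes of collagen cleavage and crosslinking gave 2 higher and 2 lower of 10 tested in the double mutant against xol-1. These counts were near the shares of all tested genes, 22.9% and 26.3%. In xol-1 against WT the counts were 0 and 3, and in the double mutant against WT 2 and 5. With columns scaled to a common sum the double mutant against xol-1 had 5 higher and 1 lower, and xol-1 against WT 0 and 5. The astacin protease gene nas-36 had the largest fall in xol-1 against WT (-0.86 on the log2 scale), and the peroxidase gene mlt-7 the largest fall in the double mutant against xol-1 (-0.46). Of the 4 collagens outside the cuticle, the type IV basement membrane chains emb-9 and let-2 were higher in the double mutant than in both other genotypes (0.54 and 0.72 on the log2 scale against xol-1, 0.34 and 0.47 against WT), and none was called in xol-1 against WT; with columns scaled to a common sum 2 of the 4 were lower there.

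Genes of the moulting cycle, which peak once in each larval stage, differed between the genotypes in the same samples. Of 16 tested, 13 were lower and 0 higher in xol-1 than in WT, 11 rose and 1 fell in the double mutant relative to xol-1, and 0 rose and 7 fell in it relative to WT. noah-2, which encodes a component of the apical matrix, had the largest rise in xol-1 sex-1 over xol-1 (0.79 on the log2 scale), and mlt-3 was the gene that fell there (-0.64). The largest fall in xol-1 against WT was that of ptr-23 (-0.85). Without xol-1 replicate 3 the counts for xol-1 against WT were again 13 lower and 0 higher. The sum of their FPKM was 2240 to 2470 in xol-1 sex-1, 1460 to 1930 in xol-1 and 2480 to 3030 in WT, so that the ranges of the 3 genotypes did not overlap. Regulators of epidermal and collagen genes gave 7 higher and 0 lower of 16 tested in the double mutant against xol-1, 1 and 8 in xol-1 against WT, and 1 and 7 in the double mutant against WT. The 8 lower calls became 5 without xol-1 replicate 3 and 11 with columns scaled to a common sum. grh-1, a Grainyhead factor of the epidermis, fell most in xol-1 against WT, with a log2 fold change of -0.74, and nhr-67, a nuclear receptor gene, rose most in the double mutant against WT (1.26). The part of position in the moulting cycle in the col gene differences was not tested.

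Markers of other tissues also moved. The summed FPKM of intestine genes was 5940 to 7620 in xol-1 sex-1, 4030 to 4910 in xol-1 and 3630 to 3780 in WT, and that of body muscle genes was 2320 to 2780, 1880 to 2320 and 1700 to 1940 FPKM in the same order. Of 9 intestine genes tested, 7 were higher in the double mutant than in xol-1 and 8 higher than in WT, with 0 lower in both, and in xol-1 against WT 4 were higher and 1 lower; without xol-1 replicate 3, 5 were higher in the double mutant than in xol-1. Of 7 muscle genes, 5 rose and 1 fell in the double mutant against xol-1, 2 and 0 in xol-1 against WT, and 7 and 0 in the double mutant against WT. Neuronal genes had sums of 2160 to 2350 FPKM in xol-1 sex-1, 2490 to 2790 FPKM in xol-1 and 2810 to 2890 FPKM in WT, and 5 of 10 lower and 2 higher in the double mutant than in WT (1 higher and 5 lower against xol-1; 1 and 2 in xol-1 against WT). The neuropeptide chaperone gene sbt-1 alone averaged 779 ± 39.7 FPKM in xol-1 sex-1, 1073 ± 59.3 FPKM in xol-1 and 1212 ± 15.6 FPKM in WT (SD, n = 4 each). The synaptobrevin gene snb-1 went the other way, higher in the double mutant by 0.27 than in xol-1 and by 0.21 than in WT on the log2 scale (limma adjusted p = 0.0131 and 0.0362), and the synaptic priming gene unc-13 was higher there than in WT. Germline genes gave 6 higher and 0 lower of 7 tested in the double mutant against WT, 4 and 0 against xol-1, and 3 and 0 in xol-1 against WT, with sums of 221 to 254 FPKM in xol-1 sex-1, 167 to 204 FPKM in xol-1 and 184 to 204 FPKM in WT. Of the germline list, 3, 5 and 7 genes were under 1 FPKM in every sample of xol-1 sex-1, xol-1 and WT, with pgl-1 and pgl-3 among the 5 that failed the filter. In the same order of genotypes, gld-1 had means of 3.44, 1.025 and 0.598 FPKM and deps-1 of 3.05, 1.26 and 0.455 FPKM. Both passed the filter mainly through the double mutant, and this selection favours calls of higher there. Of the intestine list ifb-2, and of the muscle list unc-22 and unc-89, were under 1 FPKM on average. The part of these tissue differences in the col gene results was not tested.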

How the data were processed

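The authors deposited 1 table of FPKM values per gene and stage, for poly(A) RNA sequenced with a directional kit per the labels' protocols. The submitters' processing notes name cutadapt 2.3, FastQC 0.11.8, Salmon 1.9.0, DESeq2 1.42.0 and the build WBcel235, without saying which step each served; how FPKM was computed and scaled is not given in the sources used here. Columns followed the sample titles, and 13 columns that match no sample of the series were not used. The Ensembl annotation of WBcel235, release 115, held all 21975 gene IDs and gave their symbols and positions. FPKM has no counts, so fragments per FPKM were estimated from the spacing of the lowest values of each library, and floors at 3 fragments cover counting error only.

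The test took genes that averaged 1 FPKM or more over the 12 L3 samples and ran on log2(FPKM + 1) in 1 limma fit (limma 3.58.1 with statmod 1.5.0 in R 4.3.3, eBayes with trend and robust), two-sided, with Benjamini-Hochberg adjustment over all genes tested and a threshold of 0.05. The fit was tested on simulated data. Tables and figures used Python 3.11.15, pandas 2.3.3, numpy 2.4.6 and matplotlib 3.10.9. The labels do not say that replicates came from separate cultures, so p-values measure the spread between these samples, which may be technical. Members and lists were chosen with earlier results of these data known. Named genes were up to 8 largest rises and falls per comparison among called genes whose groups did not overlap, the 8 highest at each stage, and well-known members; neighbouring members, col-33, col-125, col-160, the genes sbt-1, snb-1, unc-13 and cyn-6, the L1 splits and the yolk genes were chosen after values were seen. From the lists of other genes, the largest changes past the threshold were named. Alternatives were pseudocounts of 0.1 and 0.5, no filter or one of 5 FPKM, median-of-ratios and common-sum scaling, fits restricted to a pair of genotypes, plain eBayes, a 1.5-fold threshold, a replicate block and each L3 replicate left out. sec-13, elt-5 and opt-2 were not analysed here.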

Additional observations from a re-analysis of the deposited data

Results flagged for a closer look

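Among 204 groups of 4 values checked, 13 had a highest or lowest sample whose gap to its nearest neighbour was above Dixon's 95% critical share of the group's range. Chance gives such a gap in about 1 in 20 groups of independent values. Low values stood apart for col-17 in L3 xol-1 replicate 3 (983 FPKM) and for the share of the col family in the same library (3.99%). They also did for col-62 in L3 xol-1 sex-1 replicate 1 (0.852 FPKM), col-96 in L3 WT replicate 1 (0.783 FPKM) and col-106 in L1 xol-1 sex-1 replicate 2 (2.49 FPKM). In L3 xol-1 sex-1 replicate 2, col-17 (2777 FPKM) and col-93 (2403 FPKM) were higher than in the other replicates. col-75 stood apart in L3 xol-1 sex-1 replicate 1 (27.1 FPKM) and in L3 WT replicate 3 (42.5 FPKM). The remaining values were those of col-34 in L3 xol-1 replicate 2 (1093 FPKM), col-13 in L3 WT replicate 2 (2842 FPKM), col-109 in L3 WT replicate 1 (90.8 FPKM) and col-94 in L1 xol-1 sex-1 replicate 4 (593 FPKM).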

How the results depend on the processing

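Whether more col genes were called higher or lower held under the other pseudocounts, filters, scalings and fits tried, with 2 exceptions. Without xol-1 replicate 3 more were lower (26) than higher (22) in the double mutant against xol-1, and without the filter on low values more were higher (46) than lower (38) in the double mutant against WT. With a 1.5-fold threshold added, the higher and lower counts were 15 and 8 in the double mutant against xol-1, 12 and 23 in xol-1 against WT, and 17 and 18 in the double mutant against WT. Without that filter the median log2 fold change of the double mutant against WT was 0.0659, of opposite sign to the filtered one, over 154 members in place of 95. The median for xol-1 against WT was -0.0038 without a filter, -0.2774 with a filter of 5 FPKM and -0.3012 with a common column sum. That scaling gave 0.1497 for the double mutant against xol-1 and moved the median of all genes to -0.1206 in xol-1 against WT.

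Leaving out 1 replicate at a time gave 22 to 30 higher and 17 to 26 lower members in the double mutant against xol-1 (median 0.0296 to 0.1163). The ranges were 16 to 23 and 36 to 42 in xol-1 against WT (-0.2318 to -0.119), and 24 to 29 and 34 to 40 in the double mutant against WT (-0.2045 to -0.1308). The family's mean share without the highest member was 1.106% at L1, 4.3313% in xol-1 sex-1, 4.2558% in xol-1 and 4.6306% in WT at L3. Over a column sum without its 10 highest genes it was 1.4903% at L1, 5.2731% in xol-1 sex-1 and 5.6338% in WT.

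Samples with the same replicate number did not consistently deviate together: over all genes the correlation of their deviations was -0.1786 to 0.2442, and over the col genes it was -0.6545 to 0.5249. Replicate 2 was nonetheless the library most often highest in the col genes of each genotype. The labels name no shared culture, and the numbers were not taken as pairs. A fit with the replicate block gave higher and lower counts of 29 and 20, 21 and 42, and 28 and 39 in the 3 comparisons in the order above; col-75 lost its call in the double mutant against xol-1. The 1.5-fold threshold was applied to the counts of members and not to the named genes. Named calls of smaller change do not pass it, such as col-13 in the double mutant against xol-1, at -0.55 on the log2 scale. Under the other alternatives, 0 of 101 results for named genes reversed and 16 lost their call under at least 1 of them. These were col-61, col-71, col-75, col-125 and col-172 in the double mutant against xol-1. In xol-1 against WT they were col-3, col-12, col-13, col-93, col-118 and col-184. In the double mutant against WT they were col-62, col-80, col-117, col-125 and col-177. The counts without members that have a near-identical protein were not run, since no protein sequences were used here. Depth limits members near the floor of 3 fragments, and those under 1 FPKM were not tested.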
